A study of Mus musculus with 70 samples.

Results

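Tumor macrophages that take up lipid and debris share a set of transcripts, of which 9 were followed here: the lipid receptor Trem2, the lipid handling genes Apoe, Lpl and Fabp5, the secreted proteins Spp1 and Lgals3, and the complement genes C1qa, C1qb and C1qc. They were chosen by symbol, and all 9 of 9 were among the 55487 lines with a gene name in both CD45+ count tables. Between treatment groups none of the 9 was called in CD45+ cells on either day, where called means an adjusted p under 0.05 in edgeR's quasi-likelihood test over all genes tested. Of all genes, 7.80% were called on day 3 in histotripsy-treated against control and 5.44% in histotripsy-treated against histotripsy-abscopal tumors. In every other such comparison 0% were. The calls of members lay elsewhere. C1qa, C1qb and C1qc were higher on day 7 than on day 3 in CD45+ cells of histotripsy-abscopal tumors, and Spp1 and Lpl were higher in CD45- cells of day 7 histotripsy-abscopal tumors than in those of control tumors. The macrophage markers Adgre1 and Mrc1 were called with the C1q genes, and the fibroblast marker Pdgfrb with Spp1 and Lpl. With the macrophage or the fibroblast markers, respectively, as a covariate no member was called.

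Male and female C57BL/6 mice, 6 to 8 weeks old when obtained, carried tumors of the melanoma line B16F10 on both flanks, from which CD45+ and CD45- cells were sorted by flow cytometry. Control tumors came from mice with a unilateral sham procedure, histotripsy-treated tumors had been partially ablated with focused ultrasound that breaks tissue apart mechanically, and histotripsy-abscopal tumors were the untreated tumors on the other flank of ablated mice. Tumors were taken on day 3 or day 7 after the procedure. The CD45+ libraries of day 3 were 4 from control, 6 from histotripsy-treated and 7 from histotripsy-abscopal tumors, those of day 7 were 10, 3 and 4, and 36 CD45- libraries stood beside them. The labels give neither the sex of a mouse nor which treated and abscopal tumors shared a mouse, so p-values measure the spread between libraries. The sorted CD45+ fraction was a mixture of blood-derived cells, in which fewer macrophages and less RNA per macrophage cannot be told apart.

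Trem2 is a membrane receptor of macrophages and microglia that binds lipids and lipoproteins and signals through the adaptor Tyrobp and the kinase Syk. Macrophages in which it is active are known from atherosclerotic plaques, fat and tumors as cells rich in lipid, with high Apoe, Lpl, Fabp5, Spp1 and Lgals3. C1q, the recognition subunit of the classical complement pathway, is assembled from the chains encoded by C1qa, C1qb and C1qc and is made mostly by macrophages.

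Each library held 887798 to 3820705 counts. Ptprc, which encodes CD45, was at 665 to 1233 CPM (counts per 1000000 counts of tested genes) in the 34 CD45+ libraries and at 3 counts or fewer in each CD45- library. All 7 macrophage markers used (Adgre1, Csf1r, Cd68, Mrc1, Fcgr1, Mertk and Maf) were detected in every CD45+ group, and they summed to 705 to 1759 CPM in CD45+ libraries. In CD45- libraries the same sum was 180 to 384 CPM, although Adgre1 and Fcgr1 were at 0 counts in several groups, so the list as a whole was not particular to macrophages here. Melanoma markers summed to 61.0 to 2140 CPM in CD45+ libraries against 23513 to 36687 CPM in CD45- libraries, and the highest CD45+ values, 1154 and 2140 CPM, were those of histotripsy-abscopal replicates 1 and 4 of day 3. QuantSeq reads 1 end of each transcript, so counts did not need a correction for transcript length.

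Trem2 was the least abundant of the 9 members in CD45+ cells. On day 3 its level was 21.3, 15.5, 18.4 and 18.1 CPM in the 4 control libraries. It ran from 15.3 to 34.2 CPM with a median of 25.7 in the 6 histotripsy-treated libraries, and from 10.1 to 48.2 CPM with a median of 17.4 in the 7 histotripsy-abscopal ones. The groups overlapped, and the histotripsy-abscopal library at 48.2 CPM, replicate 4, stood above every other day 3 library. On day 7 it was 12.5 to 42.6 CPM with a median of 34.1 in the 10 control libraries, 28.6, 31.0 and 43.2 CPM in the histotripsy-treated ones, and 41.6, 28.9, 30.0 and 47.5 CPM in the histotripsy-abscopal ones. All 3 groups lay in the same range.

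Apoe, which carries lipids in lipoprotein particles and is a ligand of Trem2, was an order of magnitude above Trem2 in counts. On day 3 it was at 338, 263, 263 and 240 CPM in control libraries, at 226 to 729 CPM with a median of 425 in histotripsy-treated ones, and at 239 to 799 CPM with a median of 316 in histotripsy-abscopal ones. In histotripsy-treated libraries it was above every control library in 5 of 6. The log2 fold change of histotripsy-treated against control was 0.76 (95% interval 0.09 to 1.43, edgeR's adjusted p = 0.154). The difference did not pass the threshold, and no member was called among the 801 of 10264 genes that were (7.80%). With 1 library left out at a time the 801 ran from 334 to 1103. On day 7 Apoe was at 188 to 659 CPM with a median of 469 in control libraries, at 520, 389 and 615 CPM in histotripsy-treated ones and at 667, 612, 460 and 827 CPM in histotripsy-abscopal ones.

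The 250 bases before the annotated transcription start of Trem2, Apoe, C1qb and Spp1 are given next, because Trem2, Apoe and C1qb varied together across libraries while Spp1 did not vary with Apoe or C1qb. They are RefSeq sequences of GRCm38.p6, read 5′ to 3′ on the strand of the gene. Capitals mark the letters GAGGAA or, on the opposite strand, TTCCTC, the core of the sites bound by the macrophage and B cell factor PU.1.
Trem2, chr17:48346151-48346400, plus strand: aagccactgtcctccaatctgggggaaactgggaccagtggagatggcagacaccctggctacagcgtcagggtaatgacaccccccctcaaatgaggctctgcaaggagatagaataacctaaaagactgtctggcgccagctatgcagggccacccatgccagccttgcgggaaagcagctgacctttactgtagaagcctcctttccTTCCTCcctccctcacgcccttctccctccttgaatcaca
Apoe, chr7:19699189-19699438, minus strand: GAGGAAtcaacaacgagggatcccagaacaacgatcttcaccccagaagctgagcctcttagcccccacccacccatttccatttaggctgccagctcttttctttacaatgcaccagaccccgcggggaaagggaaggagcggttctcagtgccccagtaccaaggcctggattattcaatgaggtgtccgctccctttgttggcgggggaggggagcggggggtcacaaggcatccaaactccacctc
C1qb, chr4:136886201-136886450, minus strand: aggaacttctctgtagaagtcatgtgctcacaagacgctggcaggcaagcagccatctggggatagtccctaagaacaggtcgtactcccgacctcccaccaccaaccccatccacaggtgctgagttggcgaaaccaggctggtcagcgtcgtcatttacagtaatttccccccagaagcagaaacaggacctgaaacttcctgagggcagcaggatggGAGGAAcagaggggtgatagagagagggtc
Spp1, chr5:104434861-104435110, plus strand: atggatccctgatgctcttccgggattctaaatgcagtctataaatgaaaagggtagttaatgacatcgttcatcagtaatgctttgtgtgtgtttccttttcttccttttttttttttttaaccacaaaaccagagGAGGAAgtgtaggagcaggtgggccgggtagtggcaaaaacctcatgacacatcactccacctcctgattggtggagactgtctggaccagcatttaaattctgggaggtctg
Each of the 4 windows held 1 match, 40 bases before the start in Trem2, 250 in Apoe, 30 in C1qb and 113 in Spp1, counted from the first base of the match. Of all 32851 windows of the same length, 23.3% held at least 1. A match of 6 letters is a description of the sequence and not a binding site, and no other motif was searched. Of the 9 members, 6 had an entry in the promoter table, and 4 of these had a start within 20 bases of the gene start in GENCODE M21 and a window outside the annotated gene.

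Lpl and Fabp5 act on fatty acids, Lpl as the secreted lipase that frees them from triglycerides and Fabp5 as a carrier inside the cell. On day 3 Lpl was at 224, 180, 392 and 513 CPM in control libraries. It was at 81.2 to 272 CPM with a median of 231 in histotripsy-treated libraries and at 67.3 to 185 CPM with a median of 124 in histotripsy-abscopal ones. The histotripsy-abscopal range reached just above the lowest control library, 180 CPM, so that 6 of 7 histotripsy-abscopal libraries lay below every control library. The log2 fold change of histotripsy-abscopal against control was -1.35 (95% interval -1.96 to -0.74), the largest of any member in a CD45+ treatment comparison. Its unadjusted p was 0.000147 and its adjusted p 0.323 in edgeR's quasi-likelihood test, which called 0 of 10264 genes (0%) and left 796 at an unadjusted p under 0.05. DESeq2 gave Lpl an adjusted p of 0.0179 and called 12 of the 3694 genes it kept, and limma-voom gave 0.304 and called 0.

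The same gene stood lower in histotripsy-treated than in control libraries of day 3, by a log2 fold change of -0.64 (edgeR's adjusted p = 0.205), and higher in histotripsy-treated than in histotripsy-abscopal ones, by 0.71 (adjusted p = 0.142). The last comparison had 558 calls (5.44%) and no member among them. Both comparisons with control used the same 4 control libraries, of which replicates 3 and 4 were the highest for Lpl. On day 7 Lpl was at 163 to 517 CPM with a median of 313 in control libraries, at 598, 238 and 484 CPM in histotripsy-treated ones and at 368, 178, 438 and 157 CPM in histotripsy-abscopal ones. The groups overlapped, with a log2 fold change of histotripsy-abscopal against control of -0.12, and the change of the abscopal effect from day 3 to day 7 was 1.24 on the log2 scale (unadjusted p = 0.00911, edgeR's adjusted p = 0.702).

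Fabp5 showed no such order. It was at 45.4, 50.1, 48.2 and 68.0 CPM in day 3 control libraries, at 21.4 to 87.6 CPM with a median of 52.9 in histotripsy-treated ones and at 20.5 to 63.9 CPM with a median of 44.3 in histotripsy-abscopal ones. On day 7 it was at 33.3 to 92.1 CPM with a median of 55.5 in control, at 83.6, 55.5 and 82.6 CPM in histotripsy-treated and at 54.0, 38.5, 95.7 and 42.8 CPM in histotripsy-abscopal libraries. The groups overlapped on both days, and the log2 fold changes between them ran from -0.20 to 0.36.

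Spp1 encodes osteopontin, a secreted protein that binds integrins and Cd44, and Lgals3 encodes galectin-3, which binds sugars on glycoproteins. In counts, Lgals3 was the most abundant member in every group. On day 3 Spp1 was at 456, 416, 887 and 956 CPM in control libraries, at 456 to 1368 CPM with a median of 636 in histotripsy-treated ones and at 308 to 624 CPM with a median of 594 in histotripsy-abscopal ones. Control replicates 3 and 4 were again the highest of their group, and histotripsy-treated replicates 3 and 4, at 1368 and 1311 CPM, stood farthest above the histotripsy-abscopal ones. The log2 fold change of histotripsy-treated against histotripsy-abscopal was 0.61 (95% interval 0.05 to 1.17, edgeR's adjusted p = 0.220). On day 7 Spp1 was at 595 to 1414 CPM with a median of 752 in control, at 892, 1231 and 535 CPM in histotripsy-treated and at 386, 617, 1165 and 636 CPM in histotripsy-abscopal libraries, and the groups overlapped.

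Lgals3 was at 796, 666, 1231 and 1246 CPM in day 3 control libraries, at 804 to 1835 CPM with a median of 958 in histotripsy-treated ones and at 759 to 1070 CPM with a median of 891 in histotripsy-abscopal ones. On day 7 it was at 714 to 1626 CPM with a median of 1132 in control, at 1047, 966 and 1159 CPM in histotripsy-treated and at 916, 1254, 1478 and 1030 CPM in histotripsy-abscopal libraries. It was the least variable member between groups, with log2 fold changes from -0.15 to 0.28 in the 6 treatment comparisons.

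**Figure D1:**
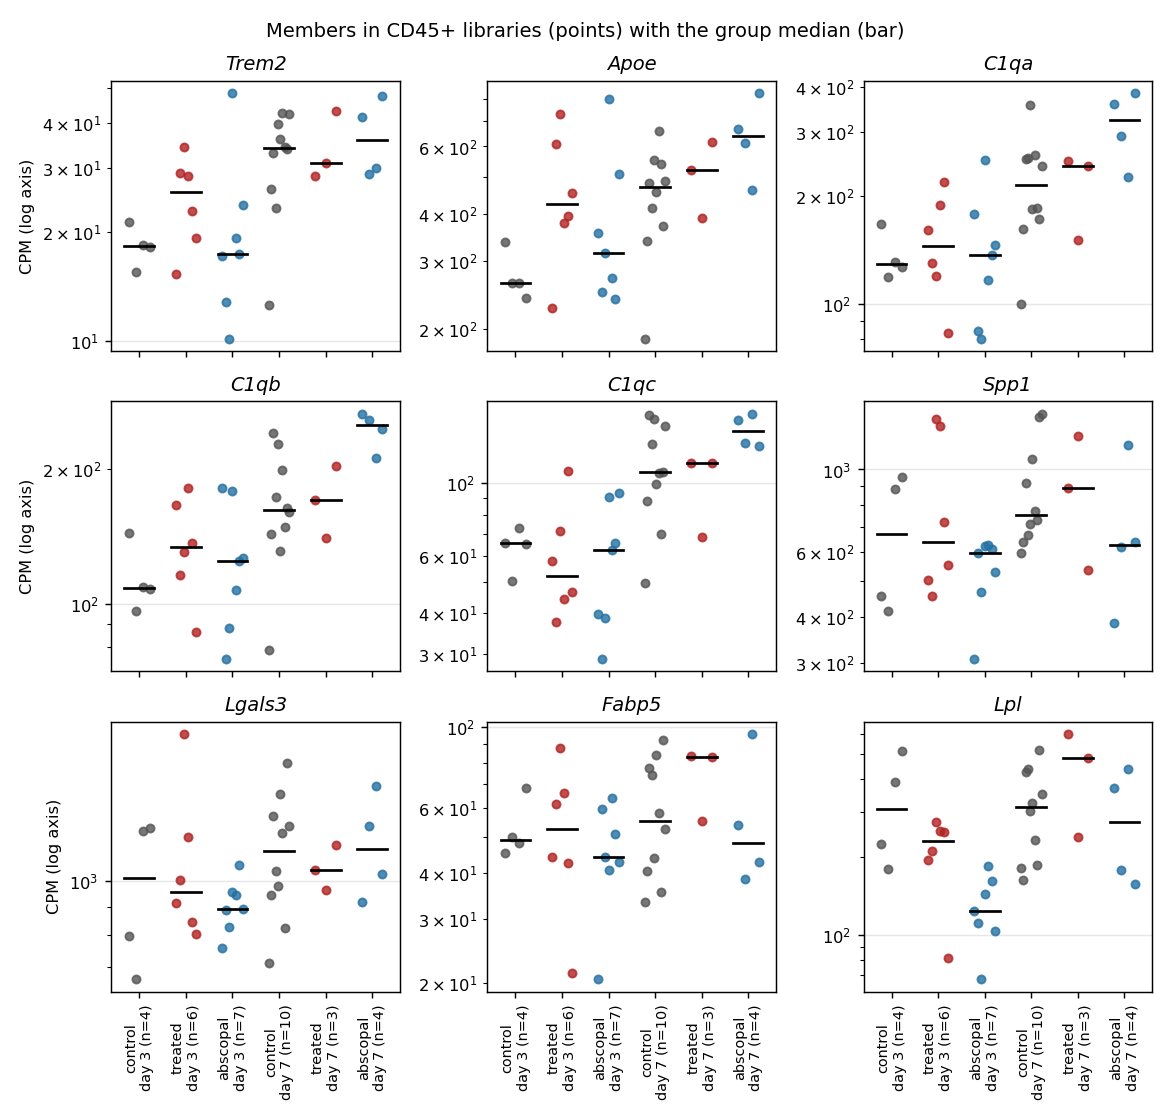
Level of each of the 9 members in the 34 CD45+ libraries, in CPM on a log axis, by group and day; points are libraries and bars are group medians. The groups of a day overlap for most genes, Lpl is lowest in histotripsy-abscopal libraries of day 3 (67.3 to 185 CPM), and C1qa, C1qb and C1qc are highest in those of day 7.

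The C1q genes lie side by side on the minus strand of chromosome 4, from the start of C1qb to the end of C1qa, chr4:136880129-136898803, a stretch of 18675 bases in GRCm38. On day 3 C1qa was at 167, 119, 131 and 127 CPM in control libraries, at 83.4 to 218 CPM with a median of 145 in histotripsy-treated ones and at 80.2 to 251 CPM with a median of 137 in histotripsy-abscopal ones. C1qb ran from 96.6 to 144 CPM in control, from 86.3 to 181 CPM in histotripsy-treated and from 75.3 to 181 CPM in histotripsy-abscopal libraries. C1qc was lower, from 50.1 to 73.1, from 37.5 to 109 and from 28.9 to 93.3 CPM. For all 3 genes the control range lay inside the range of each other group, and the log2 fold changes between groups were within -0.08 and 0.26.

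On day 7 the histotripsy-abscopal libraries were at the upper end. C1qb was at 265, 257, 211 and 245 CPM there, at 170, 140 and 202 CPM in histotripsy-treated libraries and at 79.1 to 240 CPM with a median of 162 in control ones. The 4 histotripsy-abscopal and 3 histotripsy-treated libraries did not overlap. Their log2 fold change, histotripsy-treated against histotripsy-abscopal, was -0.51 (edgeR's adjusted p = 0.9998). How many other genes lay apart in so few libraries was not counted. The lowest histotripsy-abscopal library lay above 8 of 10 control libraries. The log2 fold change of histotripsy-abscopal against control was 0.55 for C1qb (95% interval 0.16 to 0.94, unadjusted p = 0.00785, edgeR's adjusted p = 0.562), and 0.53 for C1qa and 0.37 for C1qc. No gene of 10817 passed the threshold in this comparison, in histotripsy-treated against control or in histotripsy-treated against histotripsy-abscopal (0% each), by edgeR, limma-voom or DESeq2. At an unadjusted p under 0.05 edgeR left 3 members of 800 genes in the first (C1qa, C1qb and Apoe), 0 members of 344 genes in the second and 0 of 290 in the third.

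**Figure D2:**
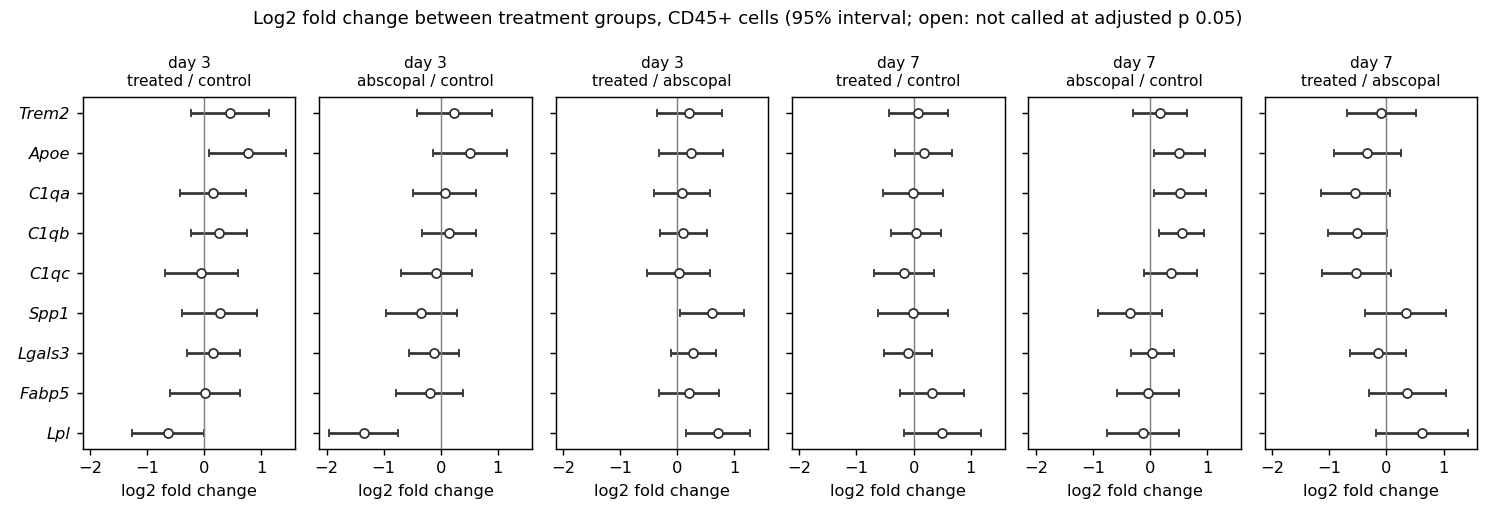
Log2 fold changes of the 9 members between treatment groups of CD45+ cells on each day, with 95% intervals; open points did not pass an adjusted p of 0.05. No point is filled, and the interval farthest from 0 is that of Lpl in day 3 histotripsy-abscopal against control (-1.96 to -0.74).

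Over the 9 members, the median log2 fold change on day 3 was 0.16 in histotripsy-treated against control, -0.08 in histotripsy-abscopal against control and 0.21 in histotripsy-treated against histotripsy-abscopal, beside -0.01, 0.01 and -0.03 over all genes tested. On day 7 it was 0.04, 0.18 and -0.15 beside -0.01, -0.02 and 0.00. A p that missed the threshold did not show that levels were alike, since the intervals of single members were wide, with SEs from 0.18 for Lgals3 to 0.39 for Lpl on the log2 scale on day 7. No member was called for a change of the treatment effect from day 3 to day 7 either, with 304 of 11251 genes called for the histotripsy-treated effect (2.70%) and 0 for the histotripsy-abscopal one (0%). Of the members only Lpl had an unadjusted p under 0.05 in those tests.

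Between the days, the log2 fold change of day 7 against day 3 was above 0 for 8 of 9 members in control tumors. It was likewise above 0 for 8 in histotripsy-treated and 9 in histotripsy-abscopal tumors. The exceptions were Lpl in control (-0.15) and Lgals3 in histotripsy-treated tumors (-0.12), and 0 members were called in either of these. In histotripsy-abscopal tumors C1qa, C1qb and C1qc were called, among 84 of 11251 genes (0.747%). C1qc, at 39.7, 28.9, 38.7, 90.7, 62.5, 65.8 and 93.3 CPM on day 3 and at 156, 133, 164 and 131 CPM on day 7, had a fold of 2.32 (95% interval 1.57 to 3.44, edgeR's adjusted p = 0.0313). C1qa, from 80.2 to 251 CPM on day 3 and at 357, 292, 225 and 384 CPM on day 7, had a fold of 2.12 (1.47 to 3.06, adjusted p = 0.0365). C1qb had a fold of 1.86 (1.37 to 2.53, adjusted p = 0.0400). C1qb and C1qc did not overlap between the days, and C1qa did, through histotripsy-abscopal replicate 4 of day 3.

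These calls moved with the macrophage markers and rested on few libraries. In histotripsy-abscopal libraries the summed level of the 7 macrophage markers was 862 to 1215 CPM on day 3 and 1406 to 1759 CPM on day 7, and Adgre1 and Mrc1 were called with log2 fold changes of 1.18 and 1.60. With the mean log2 CPM of those markers as a covariate, an alternative chosen after the data were seen, the log2 fold changes of C1qa, C1qb and C1qc fell to 0.49, 0.28 and 0.69 and none was called (adjusted p = 0.833, 0.8999 and 0.771). In this setting 0 of 11251 genes were called. The marker sums of the days did not overlap in histotripsy-abscopal libraries, so the covariate could not separate the day from the markers. Without histotripsy-abscopal replicate 2 or 3 of day 3, or replicate 1 or 2 of day 7, none of the 9 members was called, and the number of genes called was 17, 26, 0 and 1. Without replicate 5, 6 or 7 of day 3 or replicate 4 of day 7 only C1qc was called, and without replicate 3 of day 7 only C1qa. Without the 2 day 3 libraries high in melanoma markers, also left out after the data were seen, the calls were those 3 and Trem2, whose log2 fold change was then 1.05 (adjusted p = 0.0387) instead of 0.71 (0.223).

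In control tumors C1qa, C1qb and C1qc had log2 fold changes of day 7 against day 3 of 0.60, 0.47 and 0.76, below those in histotripsy-abscopal tumors, and Trem2 had 0.76 beside 0.71 there. In control tumors edgeR's adjusted p was 0.956 for each. There 1 gene of 11251 was called (0.00889%) and 0 members. In histotripsy-treated tumors the log2 fold changes of C1qa, C1qb and C1qc were 0.46, 0.27 and 0.66, with 0 members among 466 calls (4.14%). Whether the rise in histotripsy-abscopal tumors differed from that in control was tested as the change of effect above, where the C1q genes had differences of 0.42 to 0.48 and adjusted p from 0.875 to 0.890. The days were deposited as separate tables, the tumors of day 7 were older, and neither can be told apart from the day itself.

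**Figure D3:**
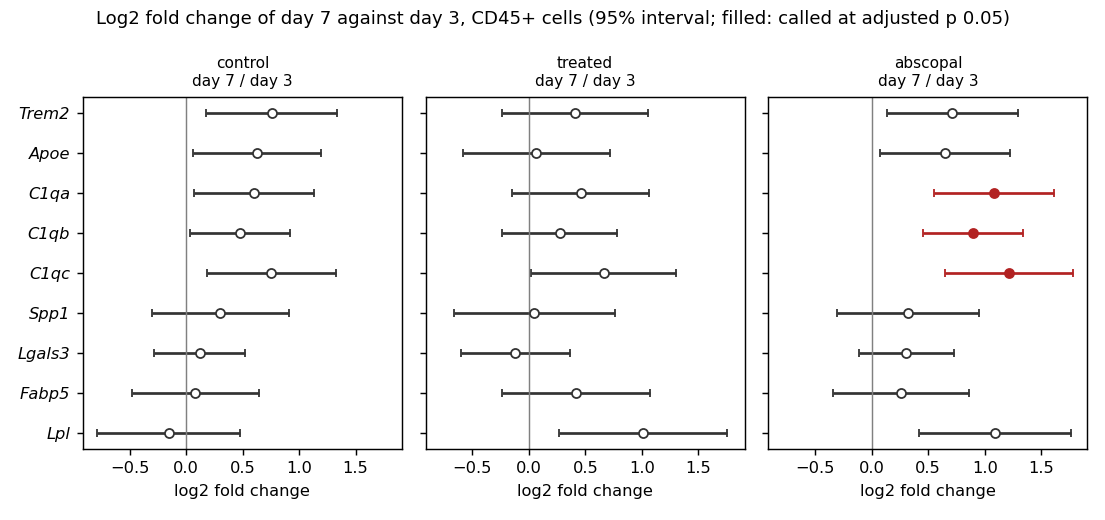
Log2 fold changes of day 7 against day 3 in CD45+ cells, with 95% intervals and 1 panel for each kind of tumor; filled points passed an adjusted p of 0.05. C1qa, C1qb and C1qc are filled in histotripsy-abscopal tumors, at 1.08, 0.90 and 1.22, and lie at 0.60, 0.47 and 0.76 in control tumors without passing.

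Genes that act with the members were followed in 6 further lists. In histotripsy-treated against control CD45+ cells of day 3, Syk, the kinase downstream of Trem2, was the only 1 of 11 genes of Trem2 signaling that was called, with a log2 fold change of 1.19 (SE 0.20, edgeR's adjusted p = 0.00162), and Tyrobp had 0.48 (adjusted p = 0.127). Of all genes tested in this comparison 7.80% were called, which is the share to set beside the counts in the 6 lists. Of 17 tested genes of lipid handling, Olr1, a receptor for oxidized LDL, and Acsl1, which activates fatty acids, rose by 1.88 and 1.36. C3, the central complement component, rose by 1.96 among 5 tested complement components, and C5ar1, the receptor of the C5a fragment, rose by 1.69 among 12 tested complement receptors and regulators. None of the 20 genes of the lipid-associated program (such as Gpnmb, Ctsb and Cd36) and none of 8 tested receptors of Spp1 and Lgals3 were called. The medians were 0.36 for Trem2 signaling, 0.27 for complement components, 0.22 for the lipid-associated program, 0.16 for the receptors, 0.05 for complement receptors and regulators and 0.00 for lipid handling, beside -0.01 over all genes.

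The same genes were higher in histotripsy-treated than in histotripsy-abscopal CD45+ cells of day 3, Syk by 0.79, Olr1 by 1.96, Acsl1 by 1.53, C3 by 1.504 and C5ar1 by 1.75. There Cd9 and Cd63, membrane proteins of the tetraspanin family, were the 2 of 20 genes of the lipid-associated program that were called, at 1.61 and 1.19, where 5.44% of all genes were. Cfp, which encodes properdin, and Cd44, a receptor of osteopontin, were higher by 0.83 and 0.97. Neutrophil markers moved with these genes. Of 6 tested, 5 rose in both comparisons, with a summed level of 341 to 2503 CPM in control, 792 to 2644 CPM in histotripsy-abscopal and 1258 to 35396 CPM in histotripsy-treated libraries, and their part in the changes of Syk, Olr1, Acsl1, C3 and C5ar1 was not tested. Other markers moved as well. In histotripsy-treated against control Chil3, higher by 1.67, was the only monocyte marker called. The monocyte markers together had mean sums of 1830 CPM in histotripsy-treated and 1845 CPM in control libraries. The T cell markers Cd3d, Cd8a and Cd8b1 were lower in the same comparison, at -0.75, -1.19 and -0.99. In histotripsy-treated against histotripsy-abscopal Mrc1 was higher by 1.31 and Trac lower, at -0.63. Against control in histotripsy-abscopal tumors of day 3 and in both day 7 comparisons no gene at all was called (0%), those of these lists included.

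From day 3 to day 7 the effect of treatment on Syk and C3 fell by 1.22 and 2.08 on the log2 scale (edgeR's adjusted p = 0.0158 and 0.00498), and that on Pik3cd, a catalytic subunit of PI3 kinase, rose by 0.84 (adjusted p = 0.0188). The neutrophil marker Mmp9 was called in the same comparison, at -3.73 (edgeR's adjusted p = 0.0101). The part of neutrophils in the changes of Syk and C3 was not tested. In histotripsy-abscopal tumors, Itgax and C3ar1, which encode an integrin chain of complement receptor 4 and the receptor of C3a, were higher on day 7 than on day 3 by 0.74 and 0.75, Cfp by 0.98 and Itga9, an integrin that binds osteopontin, by 1.54. The macrophage markers moved with these 4 genes as with the C1q genes, and with their mean as a covariate 0 of 11251 genes were called.

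Across the 34 CD45+ libraries the members varied together mostly within 2 sets. Pearson's r of log2 CPM after removal of group means is given as a description, since the libraries share cell composition and depth. It was 0.84 for Trem2 and Apoe, 0.89 for C1qa and C1qb, 0.67 for Trem2 and C1qa and 0.54 for Apoe and C1qa. In the other set it was 0.76 for Spp1 and Lgals3, 0.72 for Lpl and Fabp5 and 0.73 for Fabp5 and Lgals3. Between the sets it ran from -0.06 for Spp1 and C1qa to 0.54 for Lpl and C1qc, with 0.02 for Spp1 and Apoe, 0.39 for Trem2 and Lgals3 and 0.40 for Lpl and C1qa. The highest of these lay above the lowest values within a set, 0.44 for Apoe and C1qc and 0.45 for Spp1 and Lpl, so the sets were not cleanly apart. The mean of the macrophage markers had an r of 0.43 to 0.67 with 8 members and of 0.10 with Spp1, and the mean of the neutrophil markers had its highest r with Lgals3 (0.66) and Spp1 (0.53) and its lowest with C1qa (-0.24).

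**Figure D4:**
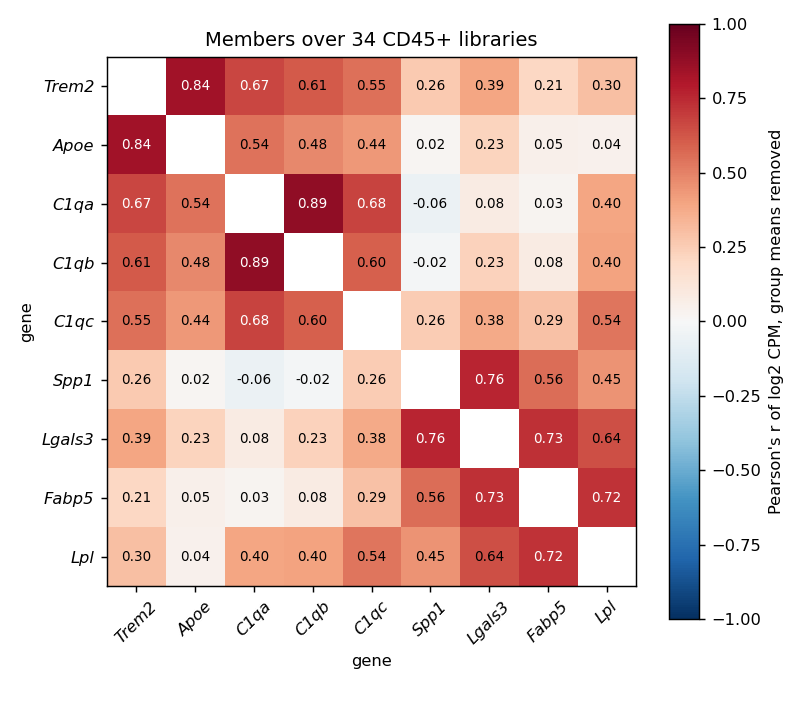
Pearson's r between members over 34 CD45+ libraries, from log2 CPM with group means removed; red is positive and blue negative. Trem2, Apoe and the C1q genes form one block (0.44 to 0.89), and Spp1, Lgals3, Fabp5 and Lpl another (0.45 to 0.76), with -0.06 to 0.54 between them.

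Among 8258 genes with a mean of at least 10 CPM, the 5 most like Trem2 were Apoe (r = 0.84), Timp2, a metalloproteinase inhibitor (0.80), Syngr1 (0.78), Lipa, the lysosomal acid lipase (0.69), and Mitf, a transcription factor of pigment cells and macrophages (0.69). The day 3 histotripsy-abscopal replicate 4 had the highest Trem2 level and the highest melanoma marker sum of all CD45+ libraries, and the part of melanoma RNA in these values was not tested. Those most like Spp1 were Pdpn, a membrane glycoprotein (0.85), Pmp22 (0.84), Lhfpl2 (0.83), Egln3, a prolyl hydroxylase of hypoxia-inducible factor (0.83), and Ero1l, an oxidase of the endoplasmic reticulum (0.81). Those most like C1qa were C1qb (0.89), Asah1, the lysosomal acid ceramidase (0.82), Cxcl16, a chemokine (0.75), Hfe (0.74) and Tmem147 (0.74).

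The members differed in how far they were limited to CD45+ cells. In the 36 CD45- libraries Trem2 had 0 counts in 33 and at most 1, C1qb 0 counts in 34 and at most 1, C1qc 0 counts in 30 and at most 2, and C1qa 0 counts in 25 and at most 4. These levels were at the floor of 3 counts or just above it, so no fold is given. Spp1 and Lpl were present at low levels, 1.25 to 69.7 CPM and 0 to 84.0 CPM, and were higher in CD45+ than in CD45- cells by 70.7-fold (95% interval 41.3 to 121) and 36.1-fold (19.4 to 67.3) on day 3 and by 86.6-fold and 54.3-fold on day 7. The log2 fold change of Lpl was 5.17 on day 3 and 5.76 on day 7. With 1 library left out at a time it ran from 5.01 to 6.19 and from 5.56 to 7.02. Of 9 members, 8 were called on day 3 and 7 on day 7, where 83.7% and 82.8% of all genes were, so the count itself was close to that of any gene.

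Lgals3, Apoe and Fabp5 were abundant in both fractions. Lgals3 was at 182 to 901 CPM in CD45- libraries and was higher in CD45+ cells by 2.89-fold on day 3 and 3.82-fold on day 7 (edgeR's adjusted p = 1.57e-12 and 6.43e-14). Apoe was at 439 to 694 CPM in CD45- libraries and 188 to 827 CPM in CD45+ ones, with log2 fold changes of CD45+ against CD45- of -0.25 (95% interval -0.52 to 0.03) on day 3 and 0.18 (-0.04 to 0.41) on day 7. On day 3 Apoe was called as lower in CD45+ cells when scaled by library totals, not TMM factors (-0.55, adjusted p = 0.000157), without a filter on low counts (-0.33, adjusted p = 0.00455) and with limma-voom (-0.33, adjusted p = 0.0218). It was also called without CD45+ histotripsy-abscopal replicate 4 (-0.34) or histotripsy-treated replicate 3 (-0.30), and DESeq2 did not call it (adjusted p = 0.0972). On day 7 it was called as higher without CD45+ control replicate 1 (0.22, edgeR's adjusted p = 0.0256), while library totals gave -0.03, so no direction was fixed for that day. Fabp5 was lower in CD45+ than in CD45- cells on day 3, by a log2 fold change of -0.58 (adjusted p = 0.000200 in edgeR), with -0.22 (adjusted p = 0.146) on day 7. On day 7 it was called with library totals or without the filter, and in 1 of 35 fits with 1 library left out. Its log2 fold change ran from -0.43 to -0.09 over the alternatives of that day. Melanoma markers took 23513 CPM or more in each CD45- library, in which Trem2 and C1qb were at most at 1 count.

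In CD45- cells Spp1 and Lpl differed between treatment groups. On day 7 Spp1 was at 47.8, 49.98, 11.1 and 19.0 CPM in the 4 histotripsy-abscopal libraries, at 5.53, 3.50 and 17.8 CPM in the histotripsy-treated ones and at 1.28 to 9.84 CPM with a median of 4.08 in the 11 control ones. Every histotripsy-abscopal library lay above every control library. The fold of histotripsy-abscopal against control was 6.90 (95% interval 4.04 to 11.8, edgeR's adjusted p = 0.00162), and Spp1 was 1 of 32 genes called of 10996 (0.291%). Cd93, a membrane protein first described as a C1q receptor, was called as well, with a log2 fold change of 2.91 (adjusted p = 0.0383). That call was lost with limma-voom, where Spp1 was the only gene called, and with the replicate number as a block, where 0 genes were. Lpl was at 40.3, 12.9, 2.42 and 4.91 CPM in the histotripsy-abscopal libraries and at 0 to 2.86 CPM in the control ones, a fold of 14.5 (4.30 to 48.6, adjusted p = 0.0492). Of the 11 control libraries 8 held 3 counts of Lpl or fewer, so the size of this fold rested on few counts. The groups overlapped through histotripsy-abscopal replicate 3. The other 3 members tested in this fraction, Apoe, Fabp5 and Lgals3, had log2 fold changes of -0.14, 0.12 and 0.34 and were not called.

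Fibroblast markers moved with both. The summed level of 6 of them (Col1a1, Col1a2, Col3a1, Dcn, Pdgfra and Pdgfrb) was 2495, 1356, 69.8 and 420 CPM in the histotripsy-abscopal libraries in the order above and 15.4 to 753 CPM in the control ones, Pdgfrb was called with a log2 fold change of 2.34, and all 6 markers were detected in every group. Of the monocyte markers Vcan was called at a log2 fold change of 3.23, while Ly6c2 and Ccr2 had no counts in the histotripsy-abscopal libraries. The 6 monocyte markers summed to 1.73 to 53.1 CPM in histotripsy-abscopal and 0 to 8.22 CPM in control libraries. Endothelial markers summed to 13.8 to 123 CPM and 10.8 to 34.7 CPM in the same order. The part of these 2 lists in the calls of Spp1 and Lpl was not tested. Without histotripsy-abscopal replicates 1 and 2 the log2 fold change of Spp1 was 1.65 instead of 2.79 and that of Lpl 1.67 instead of 3.85, and neither was called (edgeR's adjusted p = 0.532 and 0.771). With the mean log2 CPM of the fibroblast markers as a covariate they were 1.53 and 0.67, and again neither was called (adjusted p = 0.578 and 0.792). No gene was called in either setting, Cd93 included. Both settings were chosen after the data were seen. With 1 library left out at a time, Spp1 was called in 15 of 15 fits and Lpl in 4. The call of Lpl was lost without control replicate 3, 4, 5, 6, 7, 8, 9, 10 or 11 and without histotripsy-abscopal replicate 1 or 2, and its log2 fold change was 2.64 without replicate 1 (adjusted p = 0.709).

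**Figure D5:**
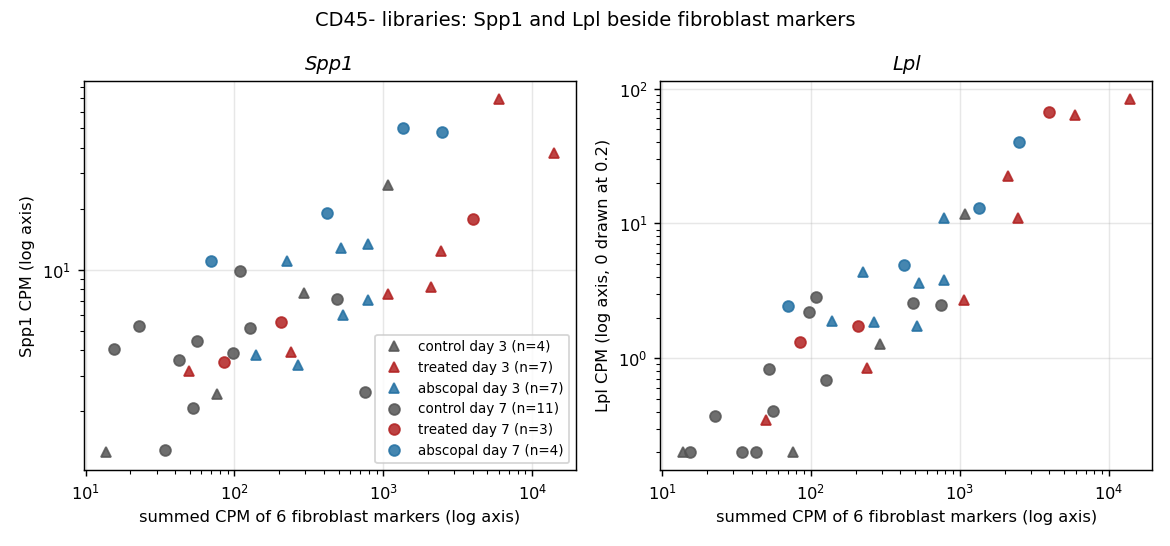
Spp1 and Lpl in the 36 CD45- libraries, in CPM, against the summed level of 6 fibroblast markers, both on log axes; triangles are day 3 and circles day 7. The 2 libraries with the highest sums, both histotripsy-treated of day 3, have Lpl at 84.0 and 63.6 CPM, and control libraries with Lpl at 0 lie at the left.

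In the other CD45- comparisons the highest Lpl levels were again in libraries with high fibroblast sums. Lpl was at 63.6, 22.5, 84.0, 0.35, 0.84, 10.9 and 2.70 CPM in the 7 histotripsy-treated libraries of day 3 and at 1.28, 11.7, 0 and 0 CPM in control ones, with a log2 fold change of 3.04 (edgeR's adjusted p = 0.340). With 1 library left out at a time the log2 fold change ran from 2.35 to 6.16. The histotripsy-treated libraries highest in Lpl, replicates 1 and 3, had fibroblast sums of 5983 and 13942 CPM. On day 7 Lpl was at 1.73, 1.31 and 67.5 CPM in histotripsy-treated libraries, and the last had a fibroblast sum of 3981 CPM. No member was called in either day 3 comparison with control (10 genes, 0.0916%, and 0 genes, 0%), in histotripsy-treated against histotripsy-abscopal on day 3 (16 genes, 0.147%) or on day 7 in histotripsy-treated against control or histotripsy-abscopal (0% each). Lgals3 on day 3 was at 414 to 901 CPM in histotripsy-abscopal, 201 to 566 CPM in histotripsy-treated and 422, 443, 265 and 231 CPM in control libraries, with a log2 fold change of -0.70 in histotripsy-treated against histotripsy-abscopal (edgeR's adjusted p = 0.134) and of 0.81 in histotripsy-abscopal against control (adjusted p = 0.683). Spp1, Apoe and Fabp5 overlapped between all groups of that day.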

How the data were processed

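The values were counts of molecules per gene from QuantSeq libraries of flow-sorted CD45+ and CD45- cells, a method that sequences the 3′ end of transcripts and collapses reads with the same molecular identifier. The authors had trimmed reads with Trim Galore 0.5.0, aligned them to GRCm38 with STAR 2.6.0 and deposited raw counts per gene from featureCounts, with names from the submitters' processing notes. The strand setting was not given in the sources used here, so Spp1 and the overlapping gene Gm42793 cannot be told apart by strand. Groups came from the labels. One further macrophage marker is not reported here and was left out of the marker sums and covariates. The unnamed line of both CD45+ tables, equal to 100% of the other lines of each column, was left out, and 120 lines shared a symbol with an earlier line.

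Each of the 4 tables was fitted with edgeR 4.0.16 (R 4.3.3), with TMM factors, its filter on low counts (min.count 10, min.total 15) and the quasi-likelihood test over all genes, and p-values were adjusted by Benjamini-Hochberg with a threshold of 0.05. All groups of a table shared one estimate of the spread. CPM used the TMM factors of the table, and correlations used log2 CPM with a prior count of 2. Day comparisons and comparisons of CD45+ with CD45- cells joined 2 tables in 1 fit. Scripts were tested on simulated counts. Libraries held 887798 to 3820705 counts, and a gene at 3 counts or fewer in a library was taken to be at the floor.

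The members, lists and tests were chosen with earlier results of these data known. Named from each list were up to 4 called genes by smallest p, or up to 2 where none was called, and the 5 genes most like Trem2, Spp1 and C1qa. Alternatives were library totals, no filter, limma-voom (limma 3.58.1), DESeq2 1.42.0, the compared groups alone, libraries of at least 1000000 counts, replicate number as a block and each library left out in turn. Marker covariates and libraries left out for their marker levels were added after the data were seen.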

Additional observations from a re-analysis of the deposited data

Results flagged for a closer look

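In 4 of 66 pairs of a member and a group of 4 to 10 libraries, 1 library lay far from the others by Dixon's test, where chance alone gives about 1 in 20 groups. Trem2 was at 48.2 CPM in CD45+ day 3 histotripsy-abscopal replicate 4, beside 10.1 to 23.7 CPM in the others, and that library had a melanoma marker sum of 2140 CPM. Lpl was at 10.995 CPM in CD45- day 3 histotripsy-abscopal replicate 1, beside 1.73 to 4.39 CPM. Lpl was also at 11.7 CPM in CD45- day 3 control replicate 2, beside 0 to 1.28 CPM in the other 3. C1qa was at 2.20 CPM, or 4 counts, in CD45- day 3 histotripsy-abscopal replicate 4, beside 0 to 0.347 CPM in the others. The causes were not tested.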

How the results depend on the processing

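The number of members called moved mainly where few or none had been called, and the cause was not tested. Without a filter on low counts it was 2 in CD45+ day 3 histotripsy-treated against control (Apoe, Lpl), 1 in histotripsy-abscopal against control (Lpl) and 2 in histotripsy-treated against histotripsy-abscopal (Spp1, Lpl). It was likewise 1 (Lpl), 1 (Lgals3) and 2 (Lpl, Lgals3) in the same CD45- day 3 comparisons, and 1 in CD45- day 7 histotripsy-treated against control (Lpl) and against histotripsy-abscopal (Spp1). It was 1 (Lpl) for each change of effect between days, 1 (C1qc) for day 7 against day 3 in control and 2 (Lpl, C1qc) in histotripsy-treated CD45+ cells. The unfiltered fits called more of all genes too. In the order above they called 1244, 153 and 1022 of 30097 genes for CD45+ day 3, beside 801, 0 and 558 of 10264 with the filter. For CD45- cells they called 312, 15 and 451 of 28941 on day 3 and 165 and 8 of 28569 on day 7. Between days they called 628 and 76 of 33634 for the changes of effect, 106 in control and 771 in histotripsy-treated cells. DESeq2 gave 1 in CD45+ day 3 histotripsy-abscopal against control (Lpl), and libraries of at least 1000000 counts gave 1 in histotripsy-treated CD45+ cells between days (Lpl).

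For CD45- day 7 histotripsy-abscopal against control the 2 calls became 1 (Spp1) with limma-voom, DESeq2 or the compared groups alone, and 0 with the fibroblast covariate or without both libraries high in fibroblast markers. For day 7 against day 3 in CD45+ histotripsy-abscopal cells the 3 calls became 1 (C1qc) with the compared groups alone, 2 (Lpl, C1qc) with libraries of at least 1000000 counts and 0 with the macrophage covariate. The fibroblast covariate gave 1 call (Lgals3) in CD45- day 3 histotripsy-treated against histotripsy-abscopal. With 1 library left out, the calls ran from 0 to 4 for CD45+ histotripsy-abscopal between days, from 1 to 2 for CD45- day 7 histotripsy-abscopal against control, from 0 to 1 for CD45- day 7 histotripsy-treated against control and from 0 to 1 for CD45+ day 3 histotripsy-treated against histotripsy-abscopal, where Lpl was called without histotripsy-treated replicate 6. Both calls of CD45- day 7 histotripsy-treated were of Lpl, without replicate 1 or 2.

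The deviations of same-numbered libraries from their group means had an r from -0.38 to 0.46, and in no 2 groups was every pair over 0.1, so the numbers were not taken to pair them. Histotripsy-treated tumors of day 3 had 6 CD45+ but 7 CD45- libraries, so equal numbers need not mean the same tumor. Neither this check nor the block could therefore show whether libraries were paired. With the replicate number as a block, CD45- day 7 histotripsy-abscopal against control had 0 calls (Spp1 3.23, edgeR's adjusted p = 0.522), CD45- day 3 histotripsy-treated against histotripsy-abscopal had 1 (Lgals3), and CD45+ histotripsy-abscopal between days had 2 (C1qa, C1qc). The block changed no other count of members.

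A change of sign was counted only where an unadjusted p was under 0.05 on either side. It occurred for Lpl in CD45- day 3 histotripsy-treated against control (-0.33) and against histotripsy-abscopal (-0.22) with the fibroblast covariate, for Lpl in CD45- day 7 histotripsy-treated against histotripsy-abscopal without histotripsy-treated replicate 3 (-3.31, with a range of -3.31 to 1.74 over all such fits), and for Trem2 in CD45+ histotripsy-abscopal between days with the macrophage covariate (-0.042). Of 147 results on single members, 27 changed their side of the threshold or their sign in any setting. In CD45- cells Trem2 and the C1q genes had 4 counts or fewer in each library. The median library total was 2453309 counts on day 3 and 2389992 on day 7 in that fraction, against 1597462 and 1786486 in CD45+ cells.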
